A study of Mus musculus with 105 samples.

Results

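The genes described here encode the enzymes that remove the mRNA cap, the PAN deadenylase and the exonuclease that degrades decapped mRNA. They are 9 of the 20756 genes in the FPKM tables and were taken by name: Dcp1a, Dcp1b, Dcp2, Edc3 and Edc4 (decapping), Xrn1 (5′ to 3′ decay), Pan2 and Pan3 (the PAN2-PAN3 deadenylase) and Parn (a separate poly(A)-specific ribonuclease). All 9 were found in the 2 FPKM tables and in the table of poly(A) tail lengths. FPKM, fragment counts divided by gene length and by the size of the library, are corrected for gene length, so levels of different genes can be set side by side within a library.

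Cytoplasmic mRNA decay usually starts with shortening of the poly(A) tail. PAN2-PAN3 is known for trimming long tails and CCR4-NOT for removing the rest. The shortened mRNA is then decapped by DCP2, the catalytic subunit, with its activator DCP1 (encoded by Dcp1a or Dcp1b) and the scaffold and enhancer proteins EDC3 and EDC4. XRN1 degrades the decapped body. Growing oocytes store stable, translationally quiet mRNAs, and many of these are translated or cleared during meiotic maturation. DCP1A and DCP2 are known as maternal mRNAs recruited for translation in maturing mouse oocytes.

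Footprint, mRNA and tail readouts were available from mouse oocytes. Ribosome footprints, the mRNA fragments that ribosomes protect from nuclease, were measured in 18 single full-grown oocytes (FGO, arrested before maturation) and 20 single metaphase II (MII, mature) oocytes, all wild type. Footprints were also measured in MII oocytes labelled Btg4 Het and Btg4 KO (3 libraries each), with mRNA by Smart-seq2 (2 libraries each), and tail lengths came from 5 long-read libraries, of which 2 were Btg4 KO and 1 was Btg4 Het MII oocytes and the other two were wild-type oocytes of each stage. Btg4 encodes an adaptor that brings CCR4-NOT to mRNAs. The labels give C57BL/6 females of 8 or 5 weeks as the source, without saying which age belongs to which library, and both groups of females received PMSG (5 IU) and hCG (5 IU). The Btg4 allele, the deleted part of the gene, the number of oocytes per Btg4 or tail library and any animal numbers are not named in the labels. Each stage of single oocytes is therefore 1 sample, described without a test, and p-values for the Btg4 libraries measure only the spread between those libraries, which may be technical. The Het oocytes were the controls of the Btg4 comparison, and no wild-type MII library stood in that table.

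Some libraries stood apart. Across the genes tested, MII oocytes 2 and 4 were nearer to FGO (median Spearman rho 0.517 and 0.538) than to their own stage (0.497 and 0.461), unlike the other 18 MII oocytes. Summed FPKM ranged from 76465 to 677515 in FGO and from 144559 to 598538 in MII oocytes. Each of the 8 oocyte markers was above 0 in at least 1 oocyte of each stage. Blood and immune markers summed to 0 to 775 FPKM in FGO and 0 to 127 in MII oocytes, with a hemoglobin gene listed in 9 FGO and 1 MII oocyte. Follicle cell markers summed to 2.36 to 143 FPKM in FGO and 72.6 to 222 in MII oocytes. Of these 15 markers, 14 were above 0 in some FGO and 12 in some MII oocyte, with Has2 at 0 throughout. The part of these markers in the stage ratios was not tested beyond the comparison without hemoglobin-listing oocytes given below. Btg4 itself had footprints of 7009, 6346 and 6134 FPKM in Het oocytes and of 1148, 971 and 907 FPKM in KO oocytes (log2 change -2.69 ± 0.23 SE, limma adjusted p = 0.00654). Btg4 mRNA was 3293 and 4774 FPKM in Het and 1754 and 2345 in KO oocytes (-0.97 ± 0.35 SE, limma adjusted p = 0.0889).

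Footprints on the decapping activator Dcp1a and the deadenylase subunit Pan2 were near 0 in FGO and abundant in MII oocytes, with no overlap between the stages. Pan3, Edc4 and Xrn1 were also higher in MII oocytes, by smaller ratios. The catalytic decapping subunit Dcp2, its cofactor gene Dcp1b and the nuclease Parn had log2 ratios between -1 and 1, and Edc3 was barely detected in either stage. The ratio is log2 of mean MII over mean FGO footprints with 1 FPKM added to each mean. Among the 8 members that passed a filter of at least 1 FPKM on average, 5 were at least 2-fold higher in MII oocytes and 0 were at least 2-fold lower. Of the 5, Xrn1 averaged 0.837 FPKM in FGO and passed the filter only through the MII oocytes. Of all 8818 genes that passed, 27.8% were at least 2-fold higher and 31.6% at least 2-fold lower. The median log2 ratio was 1.44 over the 8 members and -0.18 over all genes.

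**Figure D1:**
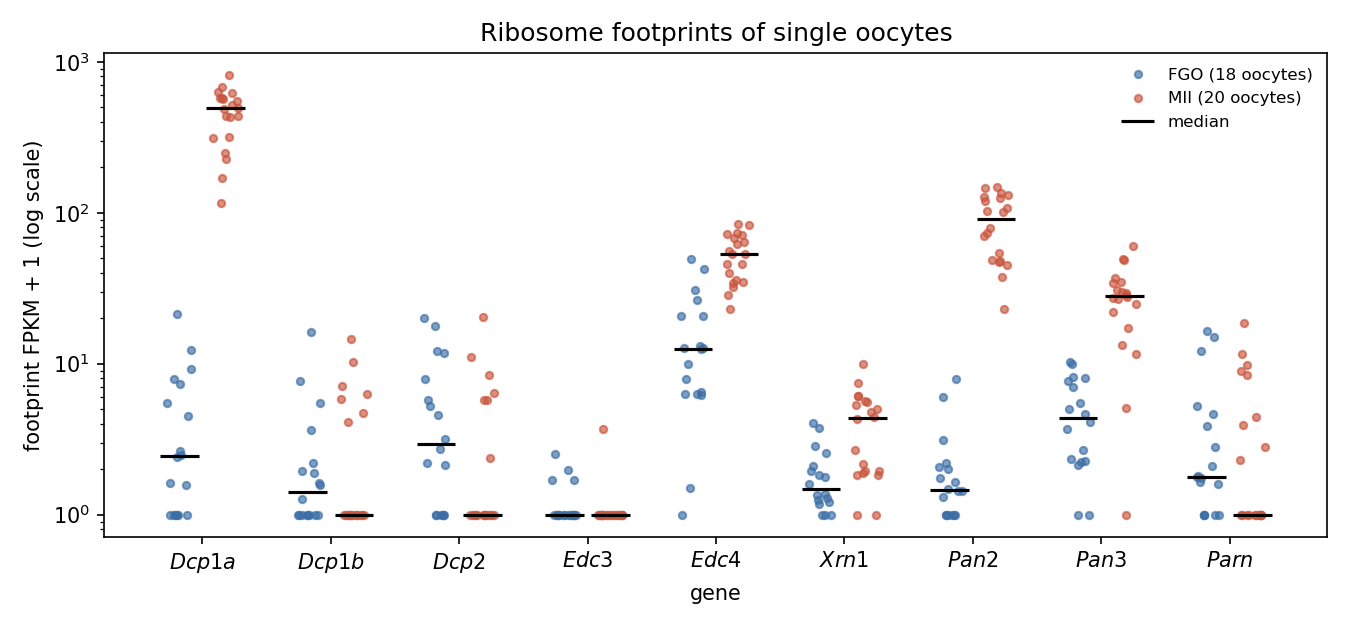
Footprint FPKM plus 1 (log axis) of the 9 genes in each of 18 FGO (blue) and 20 MII oocytes (red), with 1 point per oocyte and a bar at the median. For Dcp1a and Pan2 every MII point lies above every FGO point, while Dcp1b, Dcp2, Edc3 and Parn have many oocytes at 0 in both stages.

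Dcp1a, one of the paralogs for the activator subunit, had a lowest, median and highest value of 0, 1.46 and 20.4 footprint FPKM in FGO and of 114, 492 and 818 in MII oocytes. Every MII oocyte lay above every FGO. The means were 3.72 ± 5.37 (SD, n = 18) and 460 ± 183 (SD, n = 20), a log2 ratio of 6.61, and 99.8% of the genes had a lower ratio. Reads recovered from the steps of the FPKM scale came to a median of 1.5 per FGO and 180.5 per MII oocyte, so the FGO values rest on very few reads.

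Its paralog Dcp1b showed no clear direction. The lowest, median and highest values were 0, 0.417 and 15.2 footprint FPKM in FGO and 0, 0 and 13.5 in MII oocytes, and it was detected in 10 of the 18 FGO and in 7 of the 20 MII oocytes. The stages overlapped throughout, with a log2 ratio of 0.21 that was -0.11 once oocytes were scaled to the same summed FPKM and -0.97 with median scaling. In MII oocytes the mean of Dcp1a footprints was thus 460 FPKM and that of Dcp1b 2.29 FPKM.

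Dcp2, which carries the decapping activity, was detected in 12 of the 18 FGO and in 7 of the 20 MII oocytes. Its values ran from 0 through a median of 1.94 to 19.1 footprint FPKM in FGO and from 0 through 0 to 19.3 in MII oocytes. The highest oocytes of both stages had about the same level. The log2 ratio of the means was -0.62, and it was -1.02 without MII oocyte 11 and -1.55 from the medians, both past the 2-fold bound. Recovered Dcp2 reads had a median of 1.5 per FGO and 0 per MII oocyte, and FGO were the higher in 52.8% of FGO-MII pairs and MII oocytes in 25.6%. Over all genes with recovered reads, depth was 12119 to 122211 reads per FGO and 5113 to 29700 per MII oocyte. The part of this depth difference in the 0 values and detection counts of Dcp1b, Dcp2, Edc3 and Parn was not tested.

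The scaffold Edc4 was the most abundant member in FGO. Its lowest, median and highest values were 0, 11.6 and 48.7 footprint FPKM in FGO and 22.2, 52.4 and 83.1 in MII oocytes. The ranges overlapped, yet the MII oocyte was the higher in 94.7% of all FGO-MII pairs. The means, 15.0 ± 13.6 (SD, n = 18) and 52.0 ± 18.6 (SD, n = 20), gave a log2 ratio of 1.73. With median scaling, which lowered the median of all genes by 1.01 on the log2 scale, the ratio of Edc4 was 0.59 and no longer past 2-fold. Edc3, the other enhancer of decapping, was detected in 4 of the 18 FGO and in 1 of the 20 MII oocytes, never above 2.69 FPKM, and did not pass the filter.

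Among the deadenylases, Pan2, the catalytic subunit, had a lowest, median and highest value of 0, 0.457 and 6.90 footprint FPKM in FGO and of 21.9, 89.8 and 147 in MII oocytes. No FGO reached the lowest MII oocyte. The log2 ratio was 5.37. Dcp1a and Pan2 are 2 of the 192 genes whose MII oocytes all lay above all FGO, which was the case for 2.18% of the 8818 genes.

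Pan3, the subunit that binds poly(A)-binding protein and mRNA, ran from 0 through 3.35 to 9.24 footprint FPKM in FGO and from 0 through 27.1 to 59.1 in MII oocytes. MII oocyte 4 was the only MII oocyte at 0. The log2 ratio was 2.53, and Pan3 was detected in 16 of the 18 FGO and in 19 of the 20 MII oocytes. In MII oocytes the mean of the catalytic subunit Pan2 (87.5 FPKM) was above that of its partner Pan3 (27.0), whereas in FGO Pan3 (3.86) was above Pan2 (1.13).

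Parn, the nuclease outside the PAN complex, ran from 0 through 0.783 to 15.4 footprint FPKM in FGO and from 0 through 0 to 17.7 in MII oocytes. The stages overlapped throughout, with a log2 ratio of -0.04. For Xrn1, the 5′ exonuclease, the values ran from 0 through 0.477 to 3.02 FPKM in FGO and from 0 through 3.37 to 8.98 in MII oocytes. Its MII oocytes were higher in 79.7% of pairs and the log2 ratio was 1.142, but 0.37 with median scaling.

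Without MII oocytes 2 and 4 the log2 ratios were 6.67 for Dcp1a, 5.47 for Pan2, 2.54 for Pan3 and 1.77 for Edc4. MII oocyte 4 had the lowest Dcp1a (114 FPKM), Pan2 (21.9) and Pan3 (0) values of its stage, while oocyte 2 lay within the range of the other 18 MII oocytes for all 3. Leaving out the oocytes that list a hemoglobin gene left 9 FGO and 19 MII oocytes and ratios of 6.27, 5.90, 2.72 and 1.87 in the same order. With every oocyte scaled to the same summed FPKM, an alternative added after seeing the data, Dcp1a was at 6.45 and Pan2 at 5.33.

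The order of levels also differed between the stages. In MII oocytes it was Dcp1a, Pan2, Edc4, Pan3, Parn, Xrn1, Dcp2, Dcp1b and Edc3 by mean. Dcp1a exceeded Pan2 in 20 of 20 MII oocytes, Pan2 exceeded Edc4 in 18, Edc4 exceeded Pan3 in 18 and Pan3 exceeded Parn in 19. The lower neighbours did not separate, since Parn exceeded Xrn1 in 7 of 20, Xrn1 exceeded Dcp2 in 13 of 20 and Dcp2 exceeded Dcp1b in 7 of 20 MII oocytes. In FGO, Edc4 exceeded the next gene, Dcp2, in 14 of 18 oocytes, and from Dcp2 down to Xrn1 no gene exceeded its neighbour in more than 10 of 18.

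Genes whose log2(FPKM + 1) ran most like each member over the 38 oocytes were sought among 2893 genes averaging 10 FPKM or more. The 38 points share the contrast between stages and the depth of each oocyte, so r is a description only. Dcp1a ran most like Plat (tissue plasminogen activator, r = 0.989, and 0.887 within FGO and 0.857 within MII oocytes), followed by Bcl2l10 (0.982) and Afap1l2 (0.981). Pan2 ran most like C2cd5 (0.978, with 0.619 and 0.845 within the stages), Ccnb1, which encodes cyclin B1 (0.977), and Tcl1b5 (0.976). Edc4 ran most like Kif23 (0.951), Rhpn2 (0.943) and Cul4b (0.943), and Pan3 most like Eif2ak1 (0.889), Gle1 (0.883) and Strn (0.883). The other members had means under 10 FPKM.

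Other decay genes, listed by function, did not share 1 direction between the stages. Among 5′ decay cofactors and other decapping enzymes, 5 of the 19 that passed the filter were at least 2-fold higher in MII oocytes and 6 at least 2-fold lower (median log2 ratio 0.30). These shares are close to the 27.8% and 31.6% of all 8818 genes, against which the next 2 lists are also to be read. The largest ratios were those of the nuclear exonuclease gene Xrn2 (4.23 to 47.2 FPKM, 3.20), Nudt3 (6.29 FPKM in FGO and listed at 0 in all MII oocytes) and the P-body gene Lsm14a (17.1 to 122 FPKM, 2.77). Of 18 exosome, Ski and uridylation genes, 7 were at least 2-fold higher and 4 lower (median 0.09), led by Exosc1 (68.1 to 3.22 FPKM, -4.03), Exosc3 (3.19 to 31.8, 2.97) and Exosc9 (10.4 to 1.33, -2.29). Of 9 nonsense-mediated decay genes 2 were higher and 2 lower (median 0.09), with Smg8 at 2.09 and the helicase gene Upf1 at 2.08. In each list some of the genes counted as higher or lower averaged under 1 FPKM in their lower stage. They passed the filter only through the other stage.

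In Btg4 KO oocytes the footprints on Dcp2 rose from about 1 FPKM to between 30.0 and 40.9 FPKM, and no other member passed the test. Dcp1a footprints were lower in each of the 3 KO libraries without passing. At the mRNA level no member passed in the main fit, which did not pair the libraries. Dcp1a, Pan2 and Pan3 had lower means in KO than in Het oocytes while Parn and Dcp2 had higher ones. Dcp1b and Edc3 were close to 0 in both assays and were not tested.

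**Figure D2:**
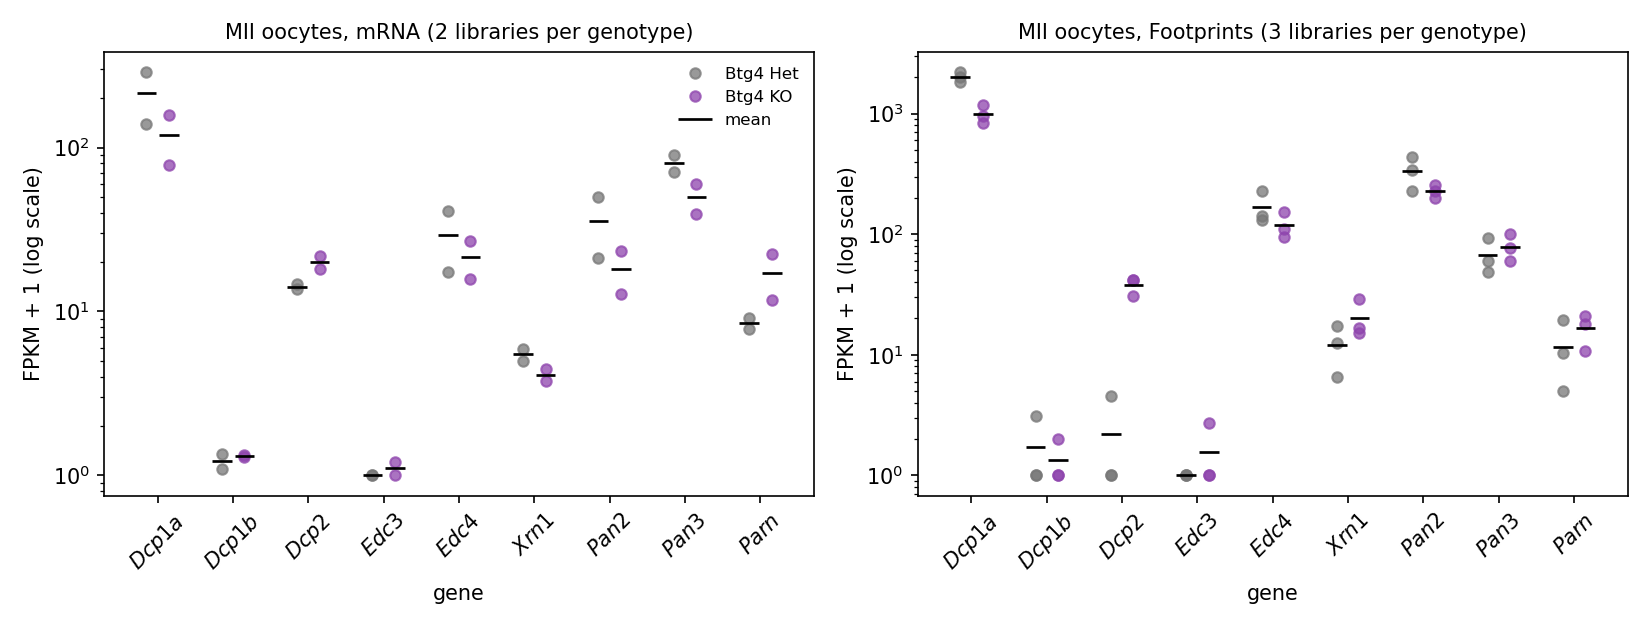
FPKM plus 1 (log axis) of the 9 genes in each Btg4 Het (grey) and Btg4 KO (purple) MII library, for mRNA (left, 2 libraries per genotype) and footprints (right, 3 per genotype), with bars at the mean. Dcp2 footprints lie at 30.0 to 40.9 FPKM in KO and at 0 to 3.55 in Het libraries, and Dcp2 mRNA at 17.2 to 20.7 in KO and 12.7 to 13.6 in Het libraries.

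For mRNA, 7 members passed the filter and 0 passed limma at an adjusted p below 0.05 in either direction, with 1, Parn, at an unadjusted p below 0.05. In that test 18.9% of all 8865 genes were higher in KO and 0.620% lower (1677 and 55 genes). With the replicate number as a block, 1 member was higher (Parn) and 3 were lower (Dcp1a, Pan2 and Pan3). Under that block 3033 of all genes were higher and 1553 lower. Same-numbered Het and KO mRNA libraries deviated together (r = 0.627). With 2 libraries per genotype this is a single value, and the labels give only the shared number, so pairing is not established. With median scaling, which moved the median of all genes from 0.14 to -0.27, the split was 1018 higher and 841 lower, so the direction of small mRNA changes depends on the scaling. The median log2 change of the 7 members was -0.41. Libraries did not overlap for 2 members higher in KO, Dcp2 and Parn, and for 2 lower, Pan3 and Xrn1, against 38.9% and 22.0% of all genes. Follicle cell markers summed to 358 to 442 FPKM in the Het and 269 to 310 in the KO mRNA libraries. Of the 15 markers, 9 were above 0 in a Het library and 10 in a KO library. Amh, Foxl2, Krt18, Gja1 and Vim were at 0 in all 4 libraries, and the part of the markers was not tested. In the Btg4 libraries, fewer cells of a type and less RNA per cell cannot be told apart.

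Parn mRNA was 8.14 and 6.82 FPKM in Het and 21.6 and 10.7 in KO oocytes, so that both KO libraries lay above both Het libraries. The log2 change was 0.94 ± 0.41 (SE, limma adjusted p = 0.148). Dcp2 mRNA was 12.7 and 13.6 FPKM in Het and 20.7 and 17.2 in KO oocytes, again without overlap, and its log2 change was 0.49 ± 0.33 (SE, limma adjusted p = 0.323).

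Dcp1a mRNA stood at 289 and 138 FPKM in Het and at 158 and 77.0 in KO oocytes, and Pan2 mRNA at 48.7 and 20.1 against 22.5 and 11.8. For both genes the second Het library lay below the first KO library, so the genotypes overlapped. Between libraries of the same number, KO lay below Het for both genes. The log2 changes were -0.85 ± 0.46 for Dcp1a and -0.90 ± 0.48 for Pan2 (SE, limma adjusted p = 0.225 for each). Without Het mRNA replicate 2 they were -1.38 (limma adjusted p = 0.0133) and -1.52 (0.0171), and both passed, whereas without Het replicate 1 they were -0.32 and -0.28. In these fits the lone Het library is assumed to vary like the KO libraries. Pan3 mRNA was 70.1 and 88.8 FPKM in Het and 38.4 and 59.1 in KO oocytes (-0.72 ± 0.33 SE, limma adjusted p = 0.174).

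Edc4 mRNA was 40.0 and 16.4 FPKM in Het and 25.9 and 14.8 in KO oocytes, and Xrn1 mRNA 4.91 and 4.02 against 3.44 and 2.78. Their changes of -0.37 ± 0.47 and -0.41 ± 0.35 (SE, limma adjusted p = 0.604 and 0.430) did not pass. Dcp1b mRNA was at most 0.342 FPKM and Edc3 mRNA at most 0.204 FPKM in any library.

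**Figure D3:**
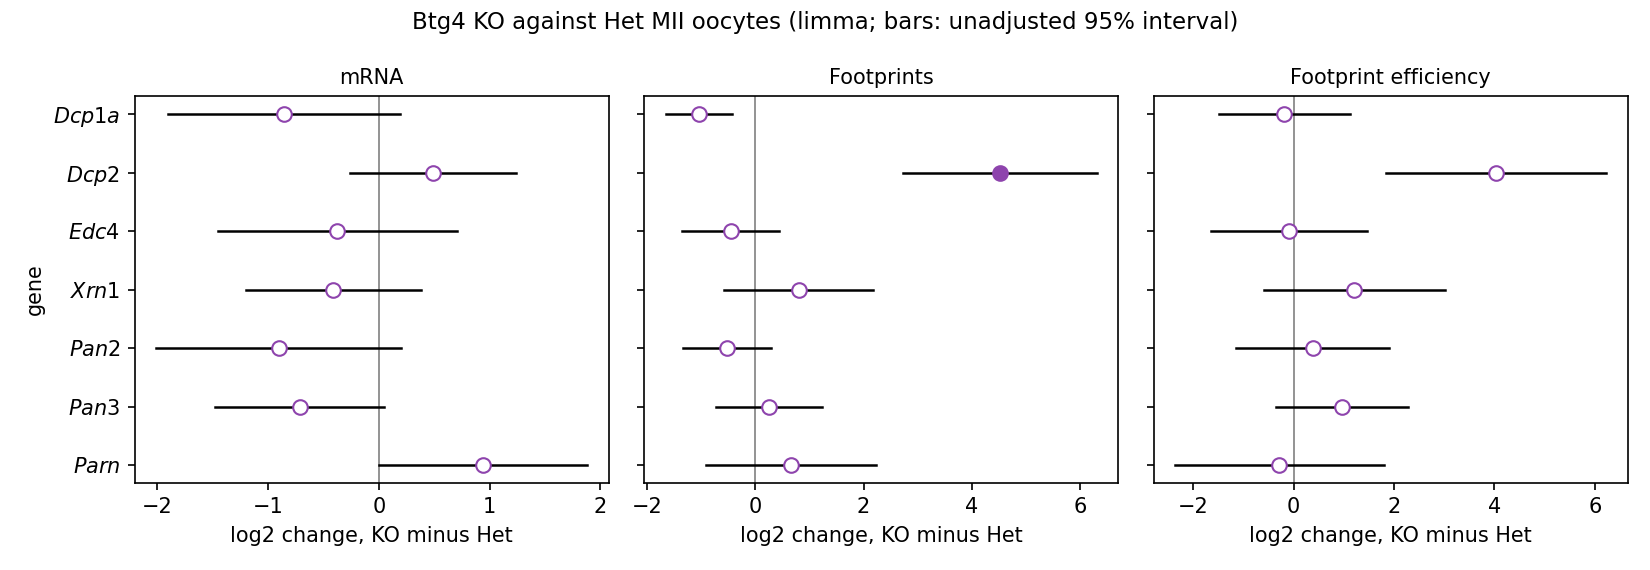
Log2 change (KO minus Het, log2(FPKM + 1) scale) of the 7 tested members in mRNA, footprints and footprint efficiency, with unadjusted 95% intervals. The filled point marks an adjusted p below 0.05, which Dcp2 footprints reached at 4.51, and every other point is open.

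In footprints, 1 of 7 members was higher in KO (Dcp2) and 0 were lower, against 3.21% and 0.328% of all 8526 genes. The median log2 change was 0.25 over the 7 members and 0.27 over all genes, which median scaling moved to -0.17. Of the members, 2 had libraries that did not overlap, Dcp2 with KO above Het (16.8% of all genes) and Dcp1a with KO below Het (7.69%). Follicle cell markers summed to 241 to 421 FPKM in the Het and 484 to 564 in the KO footprint libraries, with 8 and 10 of 15 at 0, Amh, Foxl2, Fshr and Cyp11a1 among them. Their part in these results was not tested.

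Dcp2 had 3.55, 0 and 0 footprint FPKM in Het oocytes and 30.0, 40.9 and 40.8 in KO oocytes. Every KO library stood far above every Het library. In recovered reads this was 3 footprints over the 3 Het libraries and 69 over the 3 KO libraries. Depth was taken here from the FPKM value of 1 read in each library (KO over Het 1.13), not from summed recovered reads. The ratio per depth was 20.4, with an exact 95% interval of 6.68 to 101 that covers counting error only. The log2 change was 4.51 ± 0.76 (SE, limma adjusted p = 0.0299), higher than that of 98.8% of the genes tested. The call held with quantile normalization (4.16, adjusted p = 0.0384) and with the replicate number as a block (4.51, 0.0470). Dcp2 also passed without Het replicate 1 (5.24, 0.0155). That library alone held Het footprints of Dcp2, so leaving it out sets Het to 0 without spread and is no check of the call. The call was lost with a pseudocount of 0.1 (6.80, adjusted p = 0.0870), without the filter (4.51, 0.0549) and with median scaling (4.07, 0.0503). The change stayed between 4.15 and 4.66 but was not called without Het replicate 2 (0.0631) or 3 (0.0775) and without KO replicate 1 (0.118), 2 (0.144) or 3 (0.146), and leaving out any of the KO libraries left 0 of all genes called by the same limma fit.

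Dcp1a had the most footprints of the 9 genes in both genotypes. The Het libraries held 2012, 2226 and 1825 FPKM and the KO libraries 835, 947 and 1186, so the highest KO library was well below the lowest Het library. The log2 change was -1.04 ± 0.26 (SE, limma adjusted p = 0.0907), with an unadjusted 95% interval of -1.66 to -0.43. Between 587 and 2563 recovered reads per library lay behind these values.

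Pan2 footprints were 342, 437 and 227 FPKM in Het and 227, 254 and 199 in KO oocytes, and those of its partner Pan3 were 48.0, 59.0 and 92.4 against 58.7, 99.8 and 75.5. Both sets of libraries overlapped. The changes of -0.52 ± 0.34 and 0.25 ± 0.41 (SE, limma adjusted p = 0.493 and 0.794) did not pass, and that of Pan3 was -0.19 with median scaling. Edc4 footprints were 130, 227 and 140 FPKM in Het and 93.8, 153 and 110 in KO oocytes (-0.46 ± 0.38 SE, limma adjusted p = 0.602). Xrn1 had 11.4, 5.49 and 16.3 against 14.3, 28.0 and 15.6 FPKM (0.80 ± 0.58, 0.545), and Parn 9.37, 18.5 and 4.03 against 19.8, 17.1 and 9.66 FPKM (0.66 ± 0.66, 0.629). Dcp1b was listed at 0 in 2 of 3 libraries of each genotype, and Edc3 in all Het libraries and 2 of the KO libraries.

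By mean footprint level the Het order was Dcp1a, Pan2, Edc4, Pan3, Xrn1, Parn, Dcp2, Dcp1b and Edc3, and each of the first 4 genes exceeded the next in 3 of 3 libraries. This is close to the order in single MII oocytes, although the 2 tables were normalized separately. In KO oocytes Dcp2 ranked above Xrn1 and Parn, and exceeded Xrn1 in 3 of 3 libraries.

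Footprints relative to mRNA differed widely among the members. In Het oocytes the log2 ratio of mean footprint to mean mRNA, each plus 1 FPKM, was 3.25 for Pan2, 3.23 for Dcp1a and 2.51 for Edc4, higher than in 96.3%, 96.2% and 91.9% of 7382 genes. Xrn1 was at 1.15 and Parn at 0.46, above the median of all genes of 0.23, and Pan3 was at -0.25, below it. Dcp2 lay at -2.70, with only 5.73% of genes lower. Its Het footprint mean of 1.18 FPKM rests on 3 recovered reads in 1 of 3 libraries, so the added 1 FPKM weighs heavily in this ratio. In KO oocytes Dcp2 was at 0.94, while Pan2, Dcp1a and Edc4 were at 3.65, 3.06 and 2.49.

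**Figure D4:**
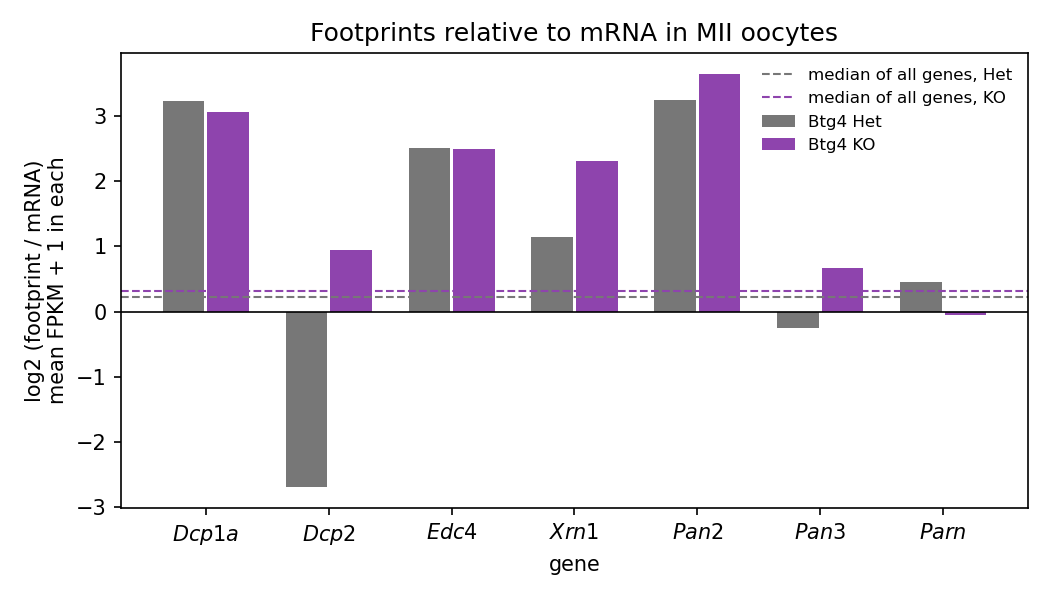
Log2 ratio of mean footprint FPKM plus 1 to mean mRNA FPKM plus 1 for the 7 tested members in Btg4 Het (grey) and KO (purple) MII oocytes, with dashed lines at the median of 7382 genes in each genotype. Dcp2 goes from -2.70 in Het, where it rests on 3 recovered footprint reads, to 0.94 in KO. Dcp1a, Edc4 and Pan2 are above 2 in both.

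The change of this ratio between genotypes was tested with an interaction term (genotype by assay) in limma, and 0 of 7 members passed in either direction, with 1, Dcp2, at an unadjusted p below 0.05. Of all 7382 genes 0.853% were higher in KO and 0.447% lower (63 and 33 genes, or 27 and 22 with the replicate number as a block). For Dcp2 the change was 4.03 ± 0.97 (SE, limma adjusted p = 0.0885). It passed with quantile normalization (4.03, adjusted p = 0.0341) and without Het footprint replicate 1, the only Het library with a Dcp2 footprint (4.75, adjusted p = 0.009996). The changes of the other 6 members ran from -0.28 to 1.21, with limma adjusted p of 0.535 or more. The median over the 7 members was 0.38 and over all genes 0.24.

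Of 20 tested 5′ decay cofactors and decapping enzymes, 8 rose in KO mRNA and 0 fell (limma), against 18.9% and 0.620% of all 8865 genes. An unadjusted limma p below 0.05 was reached by 12 of the 20 and by 2960 of all genes. The median log2 change was 0.72 over the list and 0.14 over all genes. The smallest adjusted p were those of Lsm6 (1.46 to 18.3 FPKM, 2.97, adjusted p = 0.00156), Lsm4 (1.81 to 28.0 FPKM, 3.51, 0.00444), Dxo (0.647 to 5.94 FPKM, 2.07, 0.00688) and Lsm3 (50.6 to 205 FPKM, 2.22, 0.0193). Lsm3, Lsm4 and Lsm6 encode subunits of the Lsm ring, which binds the 3′ end of deadenylated mRNA and promotes decapping, and DXO removes faulty caps. Dxo, and Exosc6 in the next list, average under 1 FPKM in Het oocytes and passed the filter only through the KO libraries. With quantile normalization the counts were 4 higher and 1 lower, with median scaling 3 and 2, without the filter 1 and 0, and without KO mRNA replicate 2, 5 and 0.

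Of 18 exosome, Ski and uridylation genes, 3 rose and 0 fell in KO mRNA (median 0.08), a share close to the 18.9% of all genes that were higher: Exosc6 (0.559 to 5.54 FPKM, 2.02, limma adjusted p = 0.00645), Dis3l (4.80 to 17.2 FPKM, 1.65, 0.0141) and Exosc9 (19.8 to 42.2 FPKM, 1.06, 0.0423). Without KO mRNA replicate 1 the list's counts were 1 and 0, without the filter 0 and 0, and with quantile normalization or median scaling 2 and 1. Of 8 nonsense-mediated decay genes 0 passed limma (0 at an unadjusted p below 0.05). In footprints 0 of 19, 15 and 7 genes of these lists passed limma (5, 4 and 0 at an unadjusted p below 0.05, with medians of -0.18, 0.12 and 0.14), and in footprint efficiency 0 of 18, 14 and 6 (2, 1 and 0). Of the 3 Lsm genes named above, Lsm3 had footprint log2 changes of 3.19 ± 0.90, Lsm4 of 1.57 ± 1.58 and Lsm6 of -0.42 ± 2.02 (SE, limma adjusted p = 0.124, 0.630 and 0.941). Over the 19 cofactors and decapping enzymes tested in footprints, the changes ran from -5.79 to 4.24.

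Tail lengths were listed for 6 of the 9 genes in the FGO library and for 4 in any MII library, as nucleotides (nt) per gene with 0 where no value was given. The libraries differed greatly in coverage, with 6353 genes listed in FGO and 229 to 1416 in the MII libraries. In FGO, Dcp1a had the shortest tail of the 6 at 38.3 nt, and 9.98% of the genes listed had a shorter one. Pan2 (48.2 nt), Edc4 (48.4), Dcp2 (56.2), Pan3 (59.0) and Parn (61.5) lay between the quartiles of all genes, 45.2 and 63.2 nt, around a median of 54.1 nt. Dcp1b, Edc3 and Xrn1 had no value in any library.

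**Figure D5:**
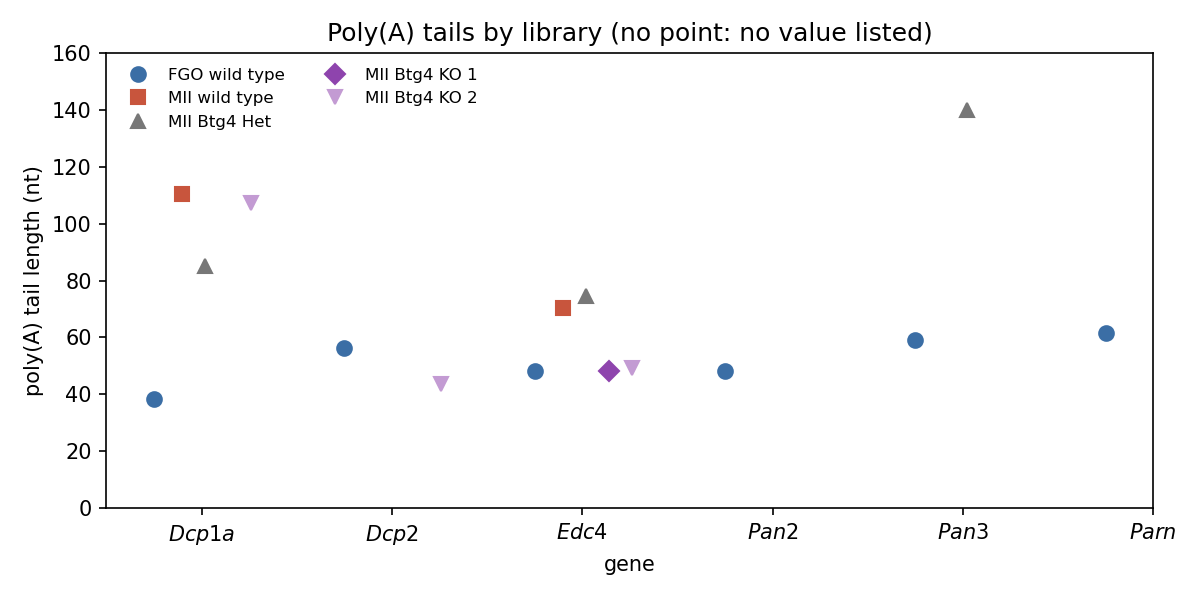
Poly(A) tail length in nt of the 6 genes with a value, with 1 marker per library (wild-type FGO and MII oocytes, Btg4 Het and the 2 Btg4 KO libraries) and no marker where none is listed. Edc4 is the only gene with a value in all 5 libraries, at 70.2 and 74.7 nt in MII wild type and Het and at 48.2 to 49.1 nt in FGO and KO.

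Dcp1a was listed at 110 nt in MII wild type, 85.2 nt in MII Het and 107 nt in the second KO library, with no value in the first. All 3 MII values were far above its FGO value. Edc4 was listed at 70.2 nt in MII wild type and 74.7 nt in MII Het, but at 48.2 and 49.1 nt in the KO libraries, close to its 48.4 nt in FGO. Of the members with both values, 2 of 2 (Dcp1a and Edc4) were longer in MII wild type than in FGO and 3 of 3 (with Pan3, 140 nt) longer in MII Het than in FGO. The same held for 42.0% of 224 and 71.0% of 580 genes. Edc4 was the only member with both control and both KO values, and both controls were longer than both KO libraries, as for 23.7% of 131 genes. Dcp2 was listed at 43.7 nt in the second KO library and in no other MII library. With 1 library per group but for KO, no test was made, and the reads behind each value are unknown. The FGO of the tail library carry the stage label SN, which the single FGO do not, so they may not be the same kind of FGO.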

How the data were processed

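Footprint and mRNA values were deposited by the authors as FPKM per gene. STAR 2.5.3a, Bowtie2 2.2.2, Cufflinks 2.2.1, Trim Galore 0.4.2 and cutadapt 1.14, and the builds mm9 and hg19, stand in the submitters' processing notes without their roles. With no spike-in in the labels, an FPKM value is a share of its own library. Tail lengths in nt are also as deposited by the authors, and no source used here states the tail caller or the minimum of reads. Of 105 labelled samples, 53 had values in the 3 tables and 52 were not analysed here. After 231 repeated rows were dropped, each FPKM table held 20756 genes. The members, lists and tests were chosen with earlier results of these data known.

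Btg4 KO and Het libraries were compared with limma 3.58.1 in R 4.3.3 (eBayes with trend, two-sided) on log2(FPKM + 1) over genes averaging 1 FPKM or more, with Benjamini-Hochberg adjustment over all genes and a threshold of 0.05. This scale understates changes of low genes. Footprint efficiency was the interaction of genotype and assay over 10 libraries. The fits were tested on simulated data. Same-numbered Het and KO footprint libraries deviated together (r = 0.255, 0.422 and 0.162), a hint from the data that their numbers pair them. The main fits did not use this pairing, and the replicate number entered as a block only as an alternative setting. Whole footprint reads were recovered for 5965 genes, among them 6 members (92.3% of values whole within 0.03 reads, below 6 reads), which held 24.1% of footprint FPKM. Since this is not nearly all genes, no count test was made over genes. The exact interval given for Dcp2 pools the reads of the 3 libraries of each genotype. It leaves out the spread between libraries. Recovered reads over these genes came to 12119 to 122211 per FGO, 5113 to 29700 per MII oocyte and 36317 to 115439 per Btg4 library. Depth is unknown for mRNA and tails. Named genes are all members, the list genes that passed a Btg4 test (up to 4 per list), the 3 largest stage ratios per list and the 3 genes most like each member; a gene that this rule names is not reported here. Other steps ran in Python 3.11.15 (matplotlib 3.10.9, pandas 2.3.3, numpy 2.4.6).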

Additional observations from a re-analysis of the deposited data

Results flagged for a closer look

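The authors' merged tail columns, which the comparisons above did not use, list 2 members with a longer tail in merged Btg4 KO than in merged MII wild type and Het oocytes. Pan3 is listed at 218.87 nt against 125.66 nt, although neither KO library alone lists a value. Dcp1a is listed at 96.86 nt against 90.43 nt. No source used here states how the libraries were merged.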

How the results depend on the processing

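Counts of members and genes in the Btg4 comparisons depended on the settings. For mRNA, genes higher and lower numbered 555 and 5 without the filter, 1104 and 698 with quantile normalization, 1018 and 841 with median scaling and 3033 and 1553 with the replicate block, under which 1 member was higher (Parn, adjusted p = 0.0203) and 3 lower (Dcp1a, 0.00715, Pan2, 0.0102, and Pan3, 0.0154). Same-numbered mRNA libraries deviated together (r = 0.627), but the labels give only the shared number and pairing is not established. Leaving out 1 library gave 22 to 270 genes lower and 0 to 2 members lower. For footprints, genes higher numbered 177 with a pseudocount of 0.1, 145 without the filter (12 lower), 149 with quantile normalization and 100 with median scaling, and members higher were 0 with that pseudocount, without the filter and with median scaling. Leaving out 1 library gave 0 to 260 genes higher, 0 to 14 lower and 0 to 1 members higher. The replicate block changed no member's call in footprints. For footprint efficiency, genes higher and lower numbered 27 and 12 without the filter and 27 and 22 with the replicate block, and 1 member was higher with quantile normalization. Leaving out 1 library gave 0 to 156 higher, 0 to 47 lower and 0 to 1 members higher.

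Changes of direction concerned values that did not pass. In the Btg4 comparisons they were Pan3 footprints (-0.054 with quantile normalization, -0.19 with median scaling), Edc4 mRNA (-0.99 to 0.25 without 1 library) and, for footprint efficiency, Dcp1a (0.082 with quantile normalization, -0.72 to 0.34 without 1 library), Edc4 (0.0084, -0.70 to 0.53), Pan2 (-0.24 to 1.00) and Parn (-0.78 to 0.19). In single oocytes, median scaling gave 1205 genes higher and 4999 lower, with 3 members higher and 1 lower. The ratios of Dcp1b and Parn changed sign without 1 oocyte (-0.079 to 0.67 and -0.34 to 0.23). Medians gave 1 member lower, and leaving out 1 oocyte 0 to 1. Scaling to the same summed FPKM, chosen after seeing the data, left 5 members higher. The authors' merged KO tails were 96.86 nt for Dcp1a (107 nt from the library) and 56.71 nt for Dcp2 (43.7 nt). The causes were not tested. Recovered reads per oocyte had medians of 2.5 or less in FGO for each of the 6 members with recovered reads.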
